A study of Mus musculus with 13 samples.

Results

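The 8 genes followed here across all arrays of sorted mouse thymocytes were Cd74, H2-Aa, H2-Ab1, H2-Eb1, H2-DMa, Ciita and Ctss of the major histocompatibility complex (MHC) class II pathway, and the macrophage marker Lyz2. They were taken by name, with earlier results of these data known. Each was read from a probe set annotated with that gene symbol alone. Thus 8 of the 19752 genes measured in the series are described here. All 8 had exactly 1 such probe set, and all 8 were tested, since no filter on dim values was used. The values are log2 of the deposited array intensities.

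The series compared thymocytes of Sox4 conditional knockout (cKO) mice with those of wild type (WT) mice, at 2 weeks of age in every group. V2 cells are immature γδ thymocytes, sorted on a FACSAria as TCRd+ Vg2+ HSAhi cells without CD4 and CD8, and DP cells are the CD4+ CD8+ double positive thymocytes that form most of the thymus. The labels give 4 groups, with 4 arrays of V2 cKO, 4 of V2 WT, 3 of DP cKO and 2 of DP WT. The V2 arrays carry titles in 2 styles, V2imm and immV2, each with 2 cKO and 2 WT arrays. What the title styles stand for is not stated, and neither are the Cre driver, the deleted exons, the strain, or whether the arrays of a group came from separate animals. The p-values below therefore measure only the spread between these arrays, which may be technical. Each group mixed the sexes. CD4 and CD8 are the only exclusion markers listed for the V2 sort, and none are listed here for antigen-presenting cells.

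Array medians lay between 122.2 and 137.2 in intensity. For the γδ lineage genes Sox13 and Etv5, DP cKO replicate 5 had log2 intensities of 11.49 and 12.01, with Cd4 at only 7.47 and Rag1 at 6.87. In V2 WT replicate 5 (immV2), Sox13 and Etv5 were at 7.73 and 6.60, with Cd4 at 12.65 and Rag1 at 13.02. Both thus carry the marker profile of the other population. They were kept apart, results are given over the remaining 11 arrays, and the values with all 13 arrays as labelled stand beside them where they differ. No array was moved to another group. Without them the immV2 set holds 1 WT array. Sox4 itself did not separate the genotypes: its log2 intensity was 8.07 and 9.60 in V2imm cKO and 8.11 and 8.23 in immV2 cKO arrays, against 8.71 and 8.64 in V2imm WT and 9.68 in the immV2 WT array. In V2 cells the cKO minus WT difference of Sox4 was -0.51 (SE 0.38, limma adjusted p = 0.999). In DP cells, where Sox4 had 8.74 and 8.68 in cKO against 9.37 and 8.55 in WT arrays, it was -0.25 (SE 0.49, adjusted p = 1). Since the deleted exons are not given, it is unknown whether this probe set lies in the deleted part, and "cKO" and "WT" below mean the arrays so labelled.

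MHC class II molecules are pairs of an α and a β chain that carry peptides to the cell surface for CD4 T cells. The invariant chain Cd74 holds the new pair on its way to the endosome, cathepsin S (Ctss) trims the invariant chain, H2-DM exchanges its last fragment for peptide, and the coactivator Ciita drives transcription of the chain genes together with factors bound to their X and Y boxes. In the mouse thymus class II is known from epithelial cells, dendritic cells, macrophages and B cells, where it serves positive and negative selection, rather than from thymocytes themselves.

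Of the 8 members, 5 have a promoter window in the RefSeq table of build GRCm38.p6, covering 250 bases before to 50 after the start, as do 18 of the 23 other pathway genes. The Y box was searched as CTGATTGG and the core of the X box as AACNGATG, on both strands, and neither string overlaps the other. The Y box stood in 4.1% of all 32851 windows, the X core in 2.32% and both in 0.0944%. Among the members the Y box occurred in H2-Aa and H2-Eb1, and H2-Eb1 had the X core upstream of it. The Ctss window held the X core alone, and those of Lyz2 and H2-DMa held neither string. The stretch that holds the matches is shown for these 2 chain genes, because their levels varied together with Cd74 across the arrays, and for H2-Oa, another class II chain gene on the same chromosome, whose difference between the V2 title styles had the opposite sign. Capitals mark the matches, and each sequence runs 5′ to 3′ on the strand of its gene. The H2-Aa stretch is chr17:34287849-34287948 on the minus strand, that of H2-Eb1 is chr17:34305742-34305841 on the plus strand and that of H2-Oa is chr17:34092254-34092353 on the plus strand.
H2-Aa: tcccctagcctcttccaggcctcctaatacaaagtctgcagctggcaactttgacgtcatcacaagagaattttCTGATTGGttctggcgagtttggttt
H2-Eb1: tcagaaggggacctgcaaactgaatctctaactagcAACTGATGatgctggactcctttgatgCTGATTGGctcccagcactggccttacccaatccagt
H2-Oa: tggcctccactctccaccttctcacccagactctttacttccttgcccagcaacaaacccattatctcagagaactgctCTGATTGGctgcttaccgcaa
Among the other pathway genes, H2-Eb2, also on chromosome 17, held both strings, and its stretch is not shown. H2-Eb2 was below the lower quartile of its array in 6 of the 11 arrays. The windows of H2-DMb1 and H2-DMb2 and 1 window of Nfyc held the X core alone. A match to these letters is a description of the window only.

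The peptide-binding chains and the invariant chain had their highest values in V2imm arrays. H2-Aa was dim in most others, while H2-Ab1 and H2-Eb1 were above the lower quartile in every array. H2-Aa, the α chain of I-A, had log2 intensities of 7.02 and 10.17 in V2imm cKO arrays and 8.76 and 8.52 in V2imm WT arrays. It had 6.70 and 5.56 in immV2 cKO arrays and 5.44 in the immV2 WT array, and in DP cells 5.62 and 5.49 in cKO against 5.41 and 5.55 in WT arrays. All 4 V2imm arrays thus lay above every immV2 and DP array. In 6 of the 11 arrays, all 4 of DP, immV2 WT replicate 3 and immV2 cKO replicate 4, H2-Aa was below the lower quartile of its array, which runs from 5.72 to 6.08 over the arrays. Differences among these dim values carry little information.

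Cd74 followed the same order. It reached 8.19 and 10.98 in V2imm cKO arrays and 10.23 and 9.93 in V2imm WT arrays. It lay at 7.77 and 6.48 in immV2 cKO arrays and at 6.19 in the immV2 WT array, and in DP cells at 6.80 and 6.46 in cKO against 5.86 and 6.04 in WT arrays. The V2imm arrays did not overlap with either of the other sets, although cKO replicate 4 (V2imm), at 8.19, was close to cKO replicate 3 (immV2), at 7.77.

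H2-Ab1, the β chain of I-A, had 6.92 and 9.65 in V2imm cKO and 8.21 and 7.88 in V2imm WT arrays, against 7.26 and 6.69 in immV2 cKO and 6.35 in the immV2 WT array. Here V2imm and immV2 overlapped, because cKO replicate 4 (V2imm) was below cKO replicate 3 (immV2). In DP cells H2-Ab1 had 6.71 and 7.19 in cKO against 6.62 and 6.45 in WT arrays. H2-Eb1, the β chain of I-E, had 7.77 and 9.56 in V2imm cKO and 8.36 and 8.75 in V2imm WT arrays, against 7.60 and 7.12 in immV2 cKO and 7.33 in the immV2 WT array. Its 4 V2imm values were the highest among the 11 arrays, the lowest of them by a small margin, and its DP values were 7.62 and 7.37 in cKO against 7.47 and 7.60 in WT arrays.

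The processing genes ran differently. H2-DMa, the α chain of the peptide exchanger, had 8.03 and 9.74 in V2imm cKO and 9.21 and 9.39 in V2imm WT arrays, against 10.70 and 10.51 in immV2 cKO and 9.30 in the immV2 WT array. In DP cells it had 9.64 and 9.48 in cKO against 8.49 and 8.66 in WT arrays. Its highest values were thus in the immV2 cKO arrays, and V2imm and immV2 overlapped.

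Ctss had 7.03 and 7.88 in V2imm cKO and 7.22 and 7.05 in V2imm WT arrays, against 8.92 and 8.80 in immV2 cKO and 8.01 in the immV2 WT array. In DP cells it had 6.04 and 6.33 in cKO against 5.84 and 6.41 in WT arrays. Every immV2 array lay above every V2imm array, and every V2 array above every DP array. Ctss was thus the single member whose V2 and DP arrays did not overlap, as was the case, with V2 higher, for 4.79% of all genes, and with V2 lower for 3.49%.

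Ciita, the regulator of the chain genes, varied least. It had 7.06 and 6.82 in V2imm cKO and 6.72 and 7.04 in V2imm WT arrays, against 6.58 and 6.36 in immV2 cKO and 6.63 in the immV2 WT array. DP cells had 6.71 and 6.70 in cKO against 6.61 and 6.73 in WT arrays.

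Lyz2 encodes lysozyme M of macrophages and granulocytes and is no part of the class II pathway. It had 6.84 and 9.39 in V2imm cKO and 7.90 and 7.58 in V2imm WT arrays, against 6.36 and 5.57 in immV2 cKO and 5.29 in the immV2 WT array. In DP cells it had 6.04 and 5.87 in cKO against 6.06 and 5.52 in WT arrays. Lyz2 thus separated V2imm from all other arrays, as H2-Aa and Cd74 did, and was below the lower quartile of its array in 3 of the 11.

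The 2 arrays kept apart differed from the sets they are labelled as in some members only. In the array labelled DP cKO replicate 5, H2-Aa, Cd74 and Ctss lay above all other DP arrays, and the other members lay within their range. In the array labelled V2 WT replicate 5 (immV2), Ctss lay well below the other immV2 arrays and H2-Aa just below them. Its other members lay within the immV2 range. In the one labelled V2 WT replicate 5 (immV2), H2-Aa was at 5.31, Cd74 at 6.33, Ctss at 6.20 and H2-DMa at 9.50. In the one labelled DP cKO replicate 5, H2-Aa was at 6.25, Cd74 at 7.91, Ctss at 7.37 and H2-DMa at 9.49. The Ctss value of the first lay in the DP range, and that of the second in the V2imm range. For the other members the first and second had 6.53 and 6.61 for H2-Ab1, 7.21 and 7.59 for H2-Eb1, 6.57 and 6.65 for Ciita, and 5.60 and 6.03 for Lyz2.

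**Figure D1:**
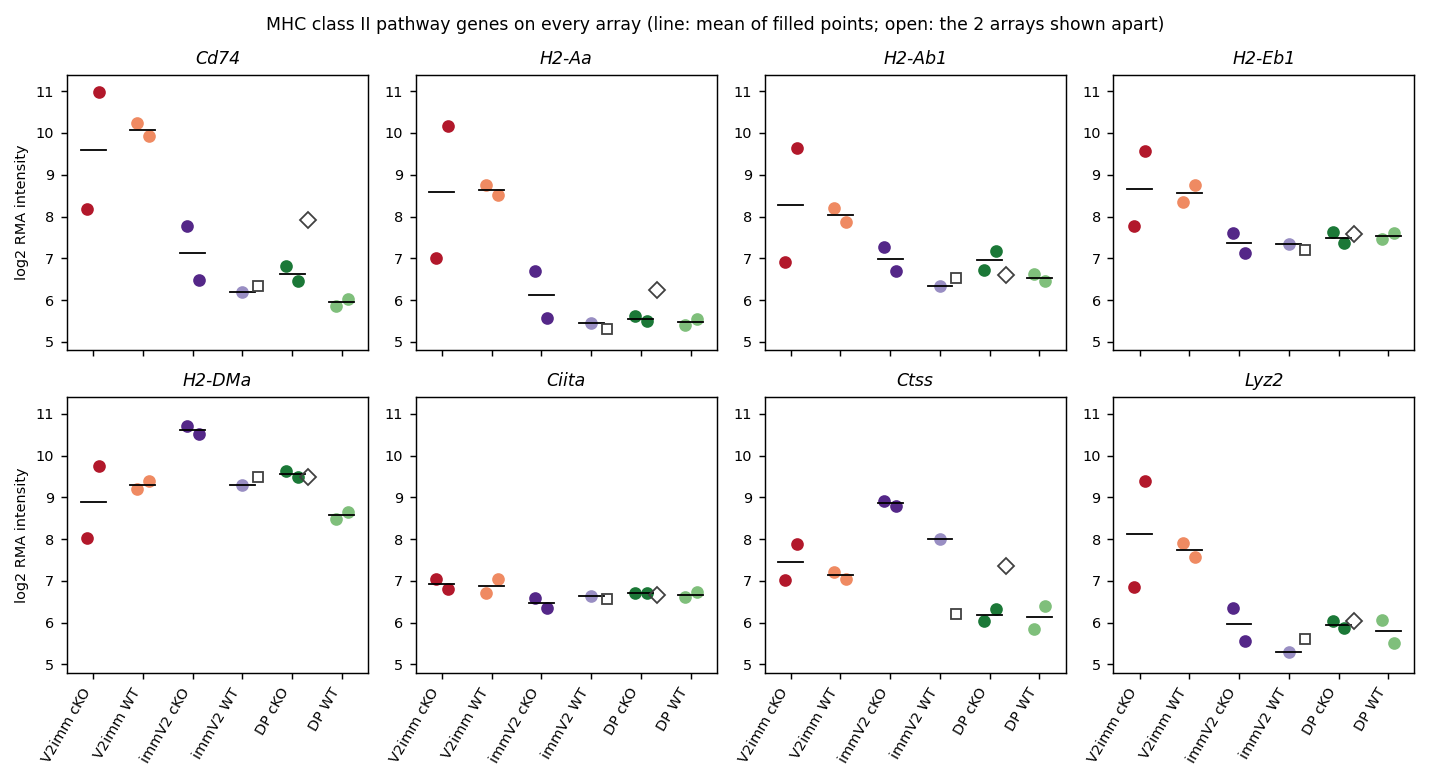
Log2 intensity of the 8 members in every array, by title style and genotype, with cKO left of WT; filled points are the 11 arrays, lines are their means, and open symbols are the arrays labelled DP cKO replicate 5 and V2 WT replicate 5 (immV2). Cd74, H2-Aa, H2-Eb1 and Lyz2 are highest in the 4 V2imm arrays, and Ctss in the 3 immV2 arrays.

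Between the V2 title styles, 3 members were higher and 1 was lower in V2imm. This comparison asks how far arrays of 1 sorted population differ between the styles, and it is not a comparison of the study's own groups. Cd74 averaged 9.83 ± 1.18 in V2imm (SD, n = 4) and 6.81 ± 0.84 in immV2 (SD, n = 3), a difference of 3.03 with genotype held in the model (SE 0.53, 8.16-fold, limma adjusted p = 0.00898). H2-Aa averaged 8.62 ± 1.29 in V2imm and 5.90 ± 0.70 in immV2, and was higher by 2.76 (SE 0.54, adjusted p = 0.0157). Lyz2 averaged 7.93 ± 1.07 in V2imm and 5.74 ± 0.56 in immV2, and was higher by 2.27 (SE 0.43, adjusted p = 0.0143). No fold is given for these 2 genes, since 2 of the 3 immV2 arrays, WT replicate 3 and cKO replicate 4, were below the lower quartile for each. Ctss went the other way, with 7.30 ± 0.40 in V2imm and 8.58 ± 0.49 in immV2, a difference of -1.19 (SE 0.21, 0.437-fold, adjusted p = 0.00936). The threshold was an adjusted p of 0.05. Over all genes 2.5% passed it in this comparison, 1.1% as higher and 1.4% as lower in V2imm. In bulk samples a larger share of cells of a type and more RNA per cell cannot be told apart.

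The other members did not pass. H2-Eb1 differed by 1.27 (SE 0.32, limma adjusted p = 0.058), H2-Ab1 by 1.46 (SE 0.45, adjusted p = 0.129) and Ciita by 0.37 (SE 0.13, adjusted p = 0.17). H2-DMa differed by -1.03 (SE 0.38, adjusted p = 0.206). The median difference was 1.37 over the 8 members and 0.08 over all genes. The 8 were chosen with earlier results of these data known, so their medians and shares against all genes are descriptions only. The V2imm arrays lay wholly above the immV2 arrays for 5 members, Cd74, H2-Aa, H2-Eb1, Ciita and Lyz2, as for 9.0% of all genes, and wholly below for Ctss, as for 5.93%. With 13 arrays as labelled the same 5 lay wholly above, and 0 lay wholly below.

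These calls rest on few arrays. With all 13 arrays as labelled, Cd74 (3.14), H2-Aa (2.87), Lyz2 (2.23) and H2-Eb1 (1.29, limma adjusted p = 0.0457) passed, where 1.56% of genes did, while Ctss had -0.69 (adjusted p = 0.345). Leaving out immV2 WT replicate 3, the only WT array of its set, left 1 member called, Ctss, with Cd74 at 2.46 (adjusted p = 0.11). Leaving out V2imm WT replicate 4, V2imm WT replicate 5 or immV2 cKO replicate 4 left 2 called in each case, Cd74 and Ctss. Without immV2 cKO replicate 3 the adjusted p of Ctss was 0.0543, and 3 members were called. Without V2imm cKO replicate 4, which has the lowest class II level of its set, 6 were called, and without V2imm cKO replicate 5, which has the highest, 7 were called. Without V2imm cKO replicate 4 the differences were 3.87 for Cd74, 3.62 for H2-Aa and 2.94 for Lyz2, and without V2imm cKO replicate 5 they were 2.47, 2.05 and 1.67. In the second of these fits H2-Eb1 also fell, to 0.81 from 1.27. More calls thus did not mean larger differences there. The share of all genes called is not given for fits with 1 array left out, so these counts have no background beside them. All 8 differences kept their direction in each of the 33 alternatives, but for several of these the outcome was fixed in advance. Leaving out DP arrays or the intensity trend cannot change these estimates. Nor can averaging the probe sets of a gene, since each member has 1. The array V2imm cKO replicate 4 also had the lowest upper quartile of intensity, 332.7 against up to 426.2 elsewhere; its part in the low values was not tested.

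**Figure D2:**
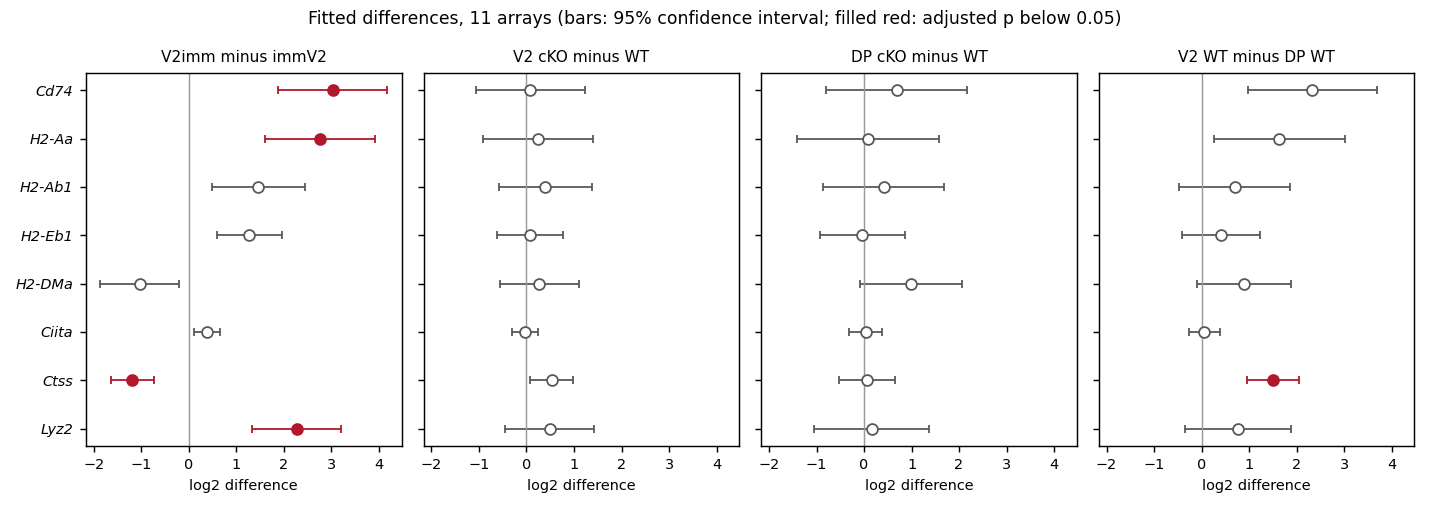
Log2 differences of the 8 members with 95% confidence intervals from limma over 11 arrays, for V2imm minus immV2, V2 cKO minus WT, DP cKO minus WT and V2 WT minus DP WT; filled points passed an adjusted p of 0.05 over all genes. The 4 calls of the title-style comparison are Cd74, H2-Aa and Lyz2 above 0 and Ctss below, and no genotype comparison has one.

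Between genotypes in V2 cells, which is a question of the study itself, no member passed the adjusted threshold, nor did any gene of the whole table (0 of 8 members and 0.0% of genes by limma, with 757 genes at an unadjusted p under 0.05 and 0.0572 as the smallest adjusted p). Cd74 averaged 8.35 ± 1.90 in V2 cKO (SD, n = 4) and 8.78 ± 2.25 in V2 WT (SD, n = 3), and with the title style held in the model the difference was 0.08 (SE 0.53, 95% interval -1.07 to 1.22). H2-Aa differed by 0.25 (SE 0.54), H2-Ab1 by 0.39 (SE 0.45), H2-Eb1 by 0.08 (SE 0.32) and H2-DMa by 0.27 (SE 0.38). Ciita differed by -0.03 (SE 0.13) and Lyz2 by 0.49 (SE 0.43). Ctss ranked first among the members, with 0.53 (SE 0.21, 95% interval 0.07 to 0.99, limma adjusted p = 0.999), and 1.04 (SE 0.42, adjusted p = 0.996) with 13 arrays as labelled. Of the 8 members 0 had cKO arrays wholly above or wholly below the WT arrays, as was the case for 1.69% and 1.76% of all genes.

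Within each title style no member passed either. Within V2imm the cKO minus WT difference was -0.50 for Cd74 (SE 0.66), -0.05 for H2-Aa (SE 0.71), 0.32 for Ctss (SE 0.27) and -0.42 for H2-DMa (SE 0.41). Within immV2, with 1 WT array that is assumed to vary like the other groups, it was 0.94 for Cd74 (SE 0.81), 0.69 for H2-Aa (SE 0.86), 0.85 for Ctss (SE 0.33, 95% interval 0.13 to 1.56) and 1.31 for H2-DMa (SE 0.50, 95% interval 0.21 to 2.40). These 2 intervals lay above 0 before adjustment. With 13 arrays as labelled the immV2 difference of Ctss was 1.75 (SE 0.54, limma adjusted p = 0.788). Of the 8 members 0 passed in either style, in which 0.0253% and 0.0456% of genes did. The difference between the styles was widest for H2-DMa, -1.73 (SE 0.65), with a limma adjusted p of 1, and 0.00506% of genes passed for this difference. For Ctss it was -0.53 (SE 0.42), and -1.44 (SE 0.76) with 13 arrays as labelled. H2-Ab1, H2-Eb1, Ciita and Lyz2 had 0.24, 0.11, 0.06 and 0.37 within V2imm, and 0.63, 0.03, -0.16 and 0.67 within immV2.

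In DP cells no member passed either, while 0.0253% of all genes did. H2-DMa had the largest difference, 0.99 (SE 0.50, limma adjusted p = 1), with both cKO arrays above both WT arrays. Cd74 differed by 0.68 (SE 0.68) and H2-Ab1 by 0.41 (SE 0.59), also with cKO wholly above WT. Groups of this size did not overlap, with cKO higher, for 15.8% of all genes. The other 5 differed by between -0.04 (H2-Eb1) and 0.16 (Lyz2). With 13 arrays as labelled, the array labelled DP cKO replicate 5 took the Cd74 difference to 1.11 (SE 0.69). H2-Ab1 then no longer had cKO wholly above WT. The cKO difference in V2 minus that in DP was not called for any member, nor for any gene (0.0%, with 372 genes at an unadjusted p under 0.05 by limma). It was -0.61 for Cd74 (SE 0.87) and -0.71 for H2-DMa (SE 0.63).

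Between populations, Ctss alone passed. It averaged 7.43 ± 0.51 in V2 WT (SD, n = 3), against values of 5.84 and 6.41 in DP WT arrays, and was higher in V2 WT by 1.50 (SE 0.25, 2.83-fold, limma adjusted p = 0.00268), where 4.87% of genes passed, 3.2% as higher. Cd74 was at 2.33 (SE 0.63, adjusted p = 0.0544), H2-Aa at 1.63 (SE 0.64, adjusted p = 0.228) and H2-DMa at 0.90 (SE 0.46, adjusted p = 0.435). Lyz2 was at 0.76, H2-Ab1 at 0.70, H2-Eb1 at 0.40 and Ciita at 0.06. The fit sets V2 WT midway between the 2 title styles. For Cd74 the log2 intensity was 10.23 and 9.93 in V2imm WT and 6.19 in immV2 WT, against 5.86 and 6.04 in DP WT arrays. For H2-Aa it was 8.76 and 8.52, then 5.44, against 5.41 and 5.55. In these 2 genes the immV2 WT array was thus near DP WT, and only V2imm WT arrays were high. The Ctss call was lost with 13 arrays as labelled (0.997, adjusted p = 0.647, with 0.0557% of genes called), without the term for the title style (1.30, adjusted p = 0.245) and without DP WT replicate 3 (1.22, adjusted p = 0.0725). In that array Ctss was below the lower quartile. The fits that leave out 1 array have no share of all genes called beside them. Without V2imm cKO replicate 4 the members called were 4, Cd74, H2-Aa, H2-DMa and Ctss. Without V2imm cKO replicate 5 they were 3, Cd74, H2-Aa and Ctss, and without immV2 cKO replicate 3 they were 2, Cd74 and Ctss.

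Of 23 further class II pathway genes, 21 were measured, and between the title styles 0 were higher and 1 was lower in V2imm, where 2.5% of all genes were called, with a median difference of -0.03 against 0.08 over all genes. The 1 that fell was H2-Ob, the β chain of the H2-O inhibitor of H2-DM. It had 7.46 and 8.19 in V2imm cKO and 8.44 and 8.32 in V2imm WT arrays, against 9.57 and 8.76 in immV2 cKO and 9.03 in the immV2 WT array, and its difference was -1.07 (SE 0.25, limma adjusted p = 0.0436). With 13 arrays as labelled 0 of the 21 passed. Its partner H2-Oa, whose promoter stretch is printed above, had -0.56 (SE 0.22, adjusted p = 0.229). The lysosomal protease gene Ctsd had -0.89 (adjusted p = 0.118) and the costimulatory receptor gene Cd40 had 0.38 (adjusted p = 0.135). In both genotype comparisons 0 of the 21 passed, and between the WT populations H2-Ob was higher in V2 by 2.08 (SE 0.30, limma adjusted p = 0.000871). With 13 arrays as labelled it had 1.51 (adjusted p = 0.515) and did not pass.

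The class I pathway was measured in 12 of 14 genes. Between the title styles 0 rose and 1 fell in V2imm, where 1.1% and 1.4% of all genes did. The 1 that fell was Erap1, which trims peptides for class I (-0.74, SE 0.16, limma adjusted p = 0.0287). With 13 arrays as labelled 0 passed. The median was -0.64, and 11 of the 12 differences were below 0. Tapbp (-1.06, adjusted p = 0.112), Tap1 (-0.79, adjusted p = 0.107) and the immunoproteasome gene Psmb9 (-0.69, adjusted p = 0.125) did not pass. Between the WT populations 3 were higher in V2, Erap1 by 1.31, Calr by 0.79 and Pdia3 by 0.89 (limma adjusted p = 0.000935, 0.0356 and 0.0446), where 3.2% of all genes were higher. With 13 arrays as labelled 0 of the 12 passed.

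Markers of other thymic cells moved with the class II chains in part. Of 26 measured macrophage and dendritic cell markers, 6 were higher and 0 were lower in V2imm, where 1.1% and 1.4% of all genes were. The median was 0.35, and 25 of 26 were above 0. With 13 arrays as labelled 7 were higher, where 1.56% of all genes passed in either direction. The Fc receptor γ chain gene Fcer1g had 8.49 and 8.31 in V2imm cKO and 8.18 and 7.73 in V2imm WT arrays, against 6.94 and 7.08 in immV2 cKO and 6.79 in the immV2 WT array (difference 1.30, SE 0.16, limma adjusted p = 0.000861). Sirpa, an inhibitory receptor of myeloid cells, was higher by 0.93 (adjusted p = 0.005), the complement gene C1qb by 1.08 (adjusted p = 0.0106) and the macrophage pore gene Mpeg1 by 0.80 (adjusted p = 0.0118). Ly86 and Adgre1 were the other 2. Mpeg1 was below the lower quartile of its array in 6 of the 11, among them immV2 WT replicate 3 and immV2 cKO replicate 4. Ly86 was below it in 5 of the 11, among them every immV2 array, so these differences involve dim values. The summed intensity of the list ran from 5365 to 6488 in V2imm, from 4776 to 6164 in immV2 and from 3819 to 4831 in DP arrays, so that the V2 styles overlapped. Cst3 and Ccr7, the 2 brightest of the list on average, were also left out, after their values were seen. Ccr7 was the 1 marker of the list with a difference below 0. Without both, the sums ran from 2673 to 3125 in V2imm, from 1945 to 2142 in immV2 and from 1887 to 2099 in DP arrays. The V2 styles then did not overlap. Since the 2 genes were chosen from these same values, this is a description only. Of the 26 markers 16 were above the lower quartile in every array, and 2, the dendritic cell marker Clec9a and the macrophage marker Adgre1, were below it in all 11. V2imm cKO replicate 4, lowest of its set for the chains, was also its lowest for Ly86 (6.14) and Tyrobp (7.27), but not for Fcer1g (8.49), Sirpa (7.28), C1qb (7.17), Mpeg1 (6.53) or Adgre1 (5.76).

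Of 13 measured B cell markers, 1 was higher, Blnk (0.63, limma adjusted p = 0.0137), and 1 was lower, Cd79b (-1.02, adjusted p = 0.0212). Over all genes 1.1% were higher and 1.4% lower. Of the 13, 6 were below the lower quartile in all 11 arrays, Ms4a1, Cd79a, Ebf1, Cr2, Fcer2a and Bank1, while Pax5, Cd79b, Vpreb3 and Spib were above it in every array. The list's sum ran from 1226 to 1340 in V2imm, from 1225 to 2101 in immV2 and from 1483 to 2046 in DP arrays. Cd79b, the brightest of the list, weighed most in these sums. Its log2 intensity ran from 8.67 to 9.42 in V2imm, from 9.24 to 10.50 in immV2 and from 9.61 to 10.36 in DP arrays. A sum without Cd79b was not taken, so these sums do not compare the list as a whole. Of 12 thymic epithelial and 12 granulocyte markers 0 passed in either direction, and all 12 granulocyte differences were above 0. The epithelial sums were 1271 to 1527 in V2imm and 1211 to 1255 in immV2, with 1411 to 1555 in DP, and the granulocyte sums 770 to 1080, 666 to 739 and 732 to 797 in the same order. Of 4 erythroid and 7 γδ markers measured, and of 9 double positive markers, 0 passed. The γδ marker Ccr6 had 1.03 (limma adjusted p = 0.0502), and with 13 arrays as labelled it was higher by 1.21 (adjusted p = 0.0377). The medians of the granulocyte (0.285), erythroid (0.239), B cell (0.229) and thymic epithelial (0.229) lists were also above that of all genes (0.079). Above 0 were 4 of 4 erythroid, 9 of 13 B cell and 9 of 12 epithelial differences. A shift above 0 was thus not particular to the macrophage and dendritic cell list. The part of other cells in the class II values was not tested.

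**Figure D3:**
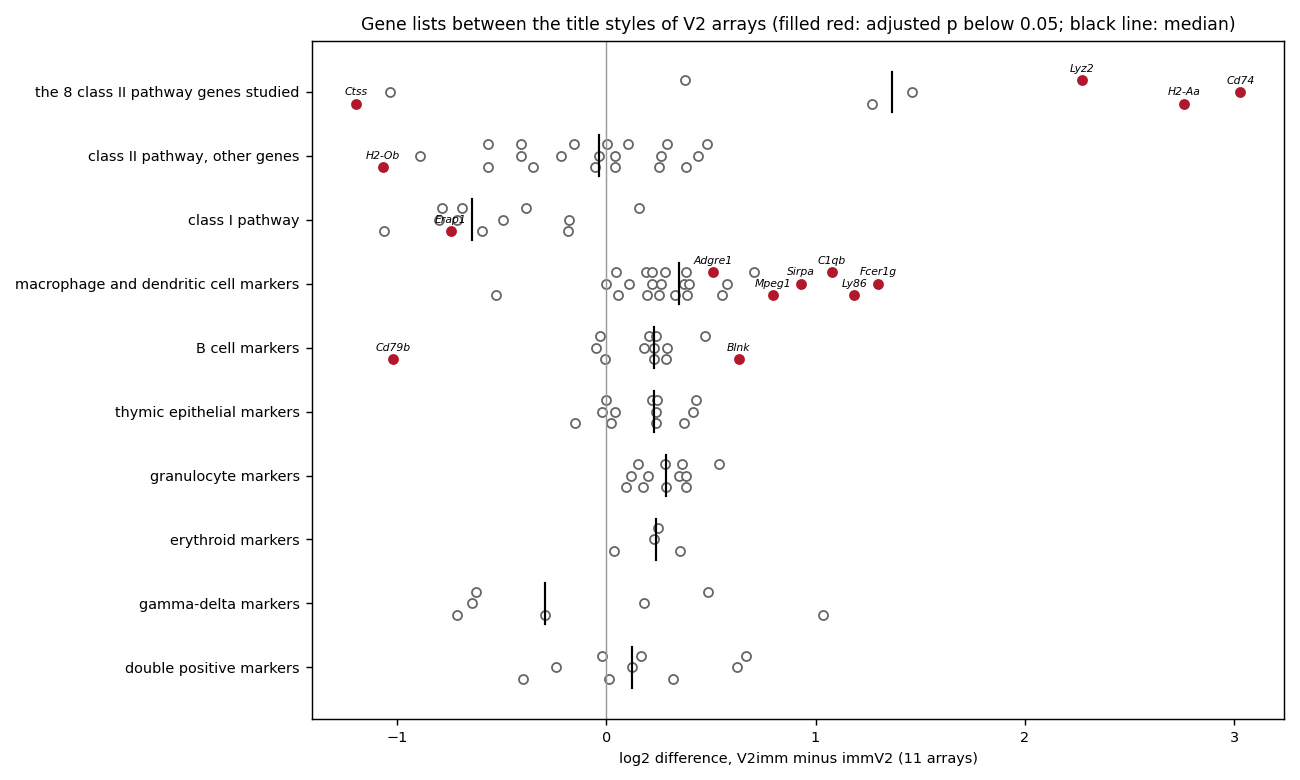
V2imm minus immV2 log2 differences over 11 arrays for each gene of the member, class II, class I and cell marker lists; points are genes, filled where the limma adjusted p is below 0.05, and bars are list medians. Cd74, H2-Aa and Lyz2 stand above all other listed genes, and the class I list lies below 0 except for 1 gene.

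Across the 11 arrays the chains varied together. The mean log2 of Cd74, H2-Aa, H2-Ab1 and H2-Eb1 was 7.47 and 10.09 in V2imm cKO and 8.89 and 8.77 in V2imm WT arrays, against 7.33 and 6.46 in immV2 cKO and 6.33 in the immV2 WT array, and in DP cells 6.69 and 6.63 in cKO against 6.34 and 6.41 in WT arrays. Cd74 and H2-Aa had a Pearson r of 0.987 over the 11 arrays. With the mean of the 4 chains Lyz2 had r = 0.981, while Ciita had 0.50, Ctss 0.21 and H2-DMa 0.09. Ctss and H2-DMa had r = 0.69 with each other. These correlations are given as descriptions. Their points share groups and RMA processing, and much of the range comes from the 4 V2imm arrays. Over the 7 other arrays r with the chain mean was 0.97 for Cd74, 0.95 for H2-Aa and 0.81 for H2-Ab1, but 0.43 for H2-Eb1, although each is part of that mean. It was 0.75 for Lyz2, -0.01 for Ciita, 0.42 for Ctss and 0.69 for H2-DMa.

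The 10 genes outside the members whose log2 intensity had the highest r with the chain mean over 11 arrays were Tyrobp (0.976), Scimp (0.966), Cybb (0.965), Ly6i (0.96), Vcl (0.948), Ryk (0.943), Tgfbi (0.941), Gatm (0.939), Sirpa (0.938) and Plbd1 (0.937). Over all 13 arrays r lay between 0.922 and 0.969 for these genes. Tyrobp encodes a signalling adaptor of myeloid and natural killer cells and Cybb a subunit of the phagocyte oxidase. Tyrobp had 7.27 and 8.12 in V2imm cKO and 7.59 and 7.46 in V2imm WT arrays, against 7.18 and 6.95 in immV2 cKO and 6.71 in the immV2 WT array. Over the 7 arrays outside V2imm its r was 0.87, that of Scimp 0.78 and that of Plbd1 0.80, while Tgfbi had -0.20. Gatm had 0.53, Sirpa 0.493, Cybb 0.466, Vcl 0.458, Ly6i 0.397 and Ryk 0.305. The likeness of Tgfbi, and of the other genes in lesser measure, thus rests on the V2imm arrays.

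**Figure D4:**
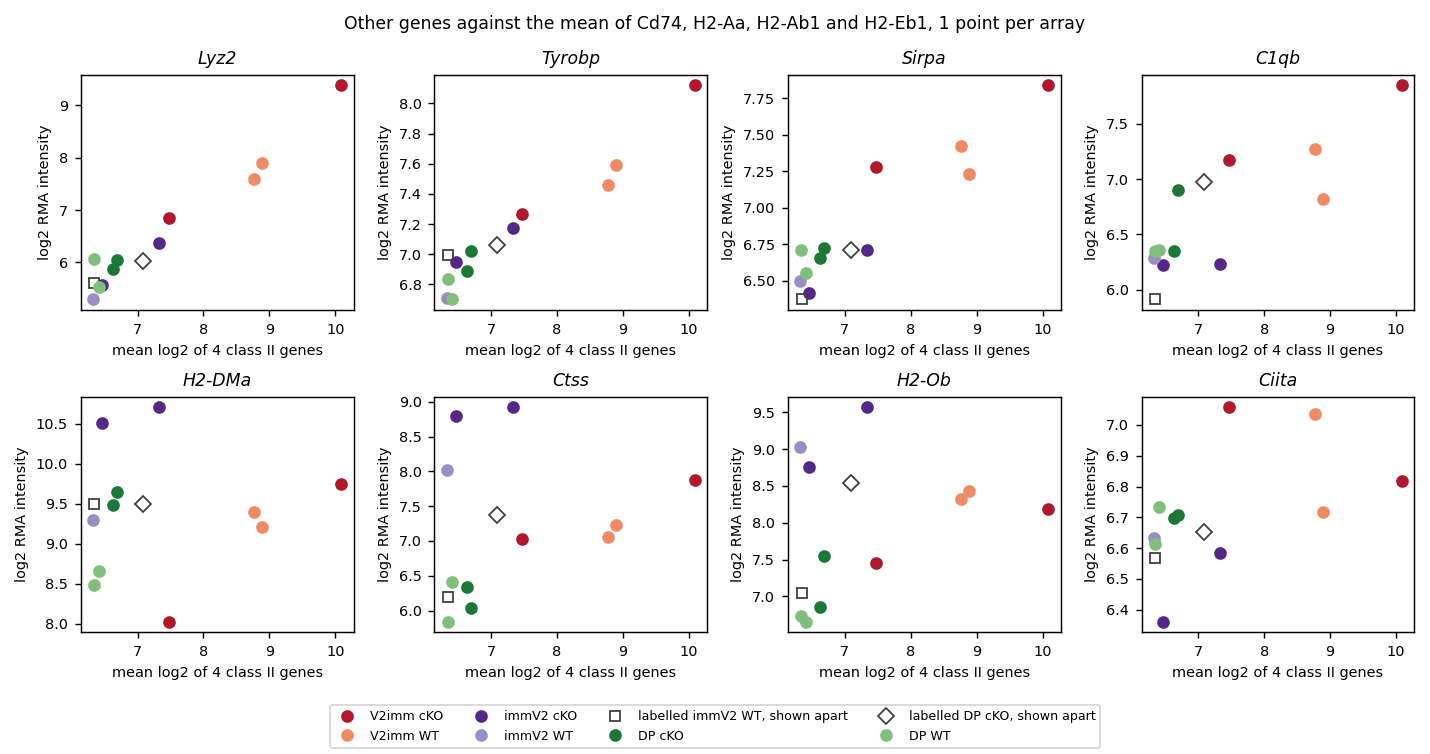
Log2 intensity of Lyz2, Tyrobp, Sirpa, C1qb, H2-DMa, Ctss, H2-Ob and Ciita against the mean log2 of Cd74, H2-Aa, H2-Ab1 and H2-Eb1. There is 1 point per array by group, with open symbols for the 2 arrays kept apart. Lyz2 follows the chain mean over the 11 arrays (r = 0.981), whereas Ctss is highest in immV2 arrays of low chain mean (r = 0.21).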

How the data were processed

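Each sample was hybridised to 1 Affymetrix array. The authors deposited 1 intensity per probe set. RMA (background correction, normalisation and summary of probes) was run in Affymetrix Power Tools, according to the submitters' processing notes, which name no version. These intensities are linear, judging by their range of 6.16 to 23800, and log2 was taken. Of 24922 probe sets 21425 had 1 symbol in the platform annotation, 1399 several, and 2098 were not listed; 21347 matched the RefSeq table by gene ID, and 0 symbols changed. The brightest probe set stood for each of 921 genes with several, leaving 19752 genes. The precision is limited by the number of arrays, which have no read depth.

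Groups came from the titles; "KO" in V2imm titles was read as the series' Sox4 cKO, and no label says whether the styles mark a batch. A linear model was fitted with limma 3.58.1 (R 4.3.3; lmFit, then eBayes with an intensity trend). It had 4 group means and a title-style covariate, over 11 arrays, with 13 arrays as labelled as an alternative. P-values are two-sided and adjusted by Benjamini-Hochberg over all genes, with a threshold of 0.05, and the fit was tested on simulated data. Figures used Python 3.11.15 and matplotlib 3.10.9. The members and lists were chosen with earlier results of these data known. The genes named were all members, up to 4 genes with the smallest p per list, population markers, Sox4 and the 10 most alike; further names, which were chosen after their values were seen, are those of small counts and of defining markers.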

Additional observations from a re-analysis of the deposited data

How the results depend on the processing

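The causes of the following changes were not tested. The share of all genes called is not given for fits with 1 array left out, nor for other settings except 13 arrays as labelled. For V2imm minus immV2 the members called were 4, and 3 to 5 under other settings (3 with V2 arrays alone). Leaving out 1 array gave 1 to 7 from 11 arrays and 0 to 5 from 13, with 0 without V2imm WT replicate 5. H2-Eb1 was also called with quantile normalisation (limma adjusted p = 0.0487) and over genes of mean log2 of at least 6 (adjusted p = 0.0474), and H2-Aa had 0.0551 with V2 arrays alone. For V2 WT minus DP WT the members called were 1, against 0 with 13 arrays, 0 without the title-style term, 2 with quantile normalisation and 2 over genes of mean log2 of at least 6. Leaving out 1 array gave 0 to 4 from 11 arrays, and 0 throughout from 13. The genotype comparisons and their difference had 0 members called by limma in each of 35, 35 and 34 alternatives. Counts of all genes called were 494 for V2imm minus immV2 and 962 for V2 WT minus DP WT with 11 arrays, and 309 and 11 with 13.

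Some differences that were not called changed sign. Without the title-style term V2 cKO minus WT was -0.43 for Cd74, -0.21 for H2-Aa and -0.13 for H2-Eb1, and the cKO effect in V2 minus that in DP was -0.29 for H2-Aa, -0.097 for H2-Eb1 and -0.050 for Lyz2. That difference for H2-Ab1 was 0.089 with 13 arrays, 0.021 with 6 group means and 0.054 with log2 of intensity plus 50. With the replicate block it was 0.37 for H2-Ab1, and the block gave 0.026 for Ciita in V2, and 0.15 for H2-Eb1 and -0.023 for Lyz2 in DP; it changed no call. Same-numbered cKO and WT arrays had residual correlations of -0.354 and -0.223 (V2imm), 0.179 (DP) and -0.504 (immV2). In V2 arrays the fit makes residuals sum to 0 within each genotype and each title style, which by itself pushes these values below 0. They therefore cannot show whether the numbers mark pairs. The main fit did not take the numbers as pairs. The block could not be fitted for V2imm minus immV2 or V2 WT minus DP WT. When 1 array of the 11 or 13 was left out, V2 cKO minus WT ran from -0.50 to 0.92 for Cd74, -0.47 to 1.11 for H2-Aa, -0.25 to 1.11 for H2-Ab1, -0.38 to 0.52 for H2-Eb1, -0.42 to 0.90 for H2-DMa, -0.13 to 0.063 for Ciita and -0.11 to 1.16 for Lyz2. DP cKO minus WT ran from -0.16 to 0.088 for H2-Eb1, -0.047 to 0.091 for Ciita, -0.22 to 0.74 for Ctss and -0.10 to 0.46 for Lyz2, and V2 WT minus DP WT from -0.030 to 0.16 for Ciita. The cKO effect in V2 minus that in DP ran from -1.35 to 0.23 for Cd74, -0.54 to 1.04 for H2-Aa, -0.66 to 0.70 for H2-Ab1, -0.34 to 0.55 for H2-Eb1, -0.16 to 0.032 for Ciita and -0.28 to 0.99 for Lyz2. With at most 4 arrays in a group, differences of this size could not be told from 0.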
